A study of Mus musculus with 18 samples.

Results

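The nuclear-encoded subunits of the mitochondrial respiratory chain and ATP synthase were examined in activated CD8+ T cells of the mouse that were cultured with lithocholic acid (LCA), which gut bacteria form from a primary bile acid. Members were chosen by symbol alone, as genes beginning with Ndufa, Ndufb, Ndufc, Ndufs, Ndufv, Uqcr, Cox4 to Cox8 or Atp5, together with Sdha, Sdhb, Sdhc, Sdhd and Cyc1. The complex I assembly factors named Ndufaf (8 symbols) were dropped. This gave 86 of the 24537 genes in the count table: 36 of complex I, 4 of complex II, 9 of complex III, 20 of complex IV and 15 of complex V. The remaining 2, Atp5s and Atp5sl, share the prefix but are not subunits. Cox7a2l, a supercomplex factor, is counted with complex IV. Enough reads for testing were present for 79 members, among 11651 genes tested in all.

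All cells were naive CD8+ T cells edited with CRISPR ribonucleoprotein, activated through CD3 and CD28, and then cultured overnight. The WT label stands for a scrambled guide, and the KO label for guides against Nur77, the orphan nuclear receptor encoded by Nr4a1. Each received no LCA (control), 10 µM LCA or 50 µM LCA, which gave 6 groups of 3 RNA sequencing libraries. The labels name no mouse strain, sex or age, and do not say whether the 3 libraries of a group came from separate animals or cultures, so the spread behind each p-value may be technical.

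The respiratory chain passes electrons from NADH (complex I) and succinate (complex II) through ubiquinone to complex III, and on through cytochrome c to complex IV, where oxygen is reduced. Complexes I, III and IV pump protons, and complex V, the ATP synthase, uses the proton gradient to make ATP. Activated T cells raise mitochondrial mass and respiration along with glycolysis. Other core subunits are encoded by mitochondrial DNA. None of the 26 symbols listed for them was in the count table, so these transcripts were not analysed here.

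Total counts ran from 4113713 to 5945518 per library, and 1.60 to 1.865% of them lay on the members. Each change is given on the log2 scale with its standard error, by edgeR's quasi-likelihood test with Benjamini-Hochberg adjustment over all tested genes, and a gene was called at an adjusted p below 0.05. Nr4a1 itself had 29 to 84 counts per library and did not pass the test between guides (-0.16 ± 0.19, edgeR adjusted p = 0.789), so its counts do not check the KO label. Libraries also differed in the summed count of odorant and related receptor genes that T cells do not use. As CPM, the count scaled to library depth, this receptor background was 50.4 to 108 in WT control and 121, 139 and 223 in replicates 1, 2 and 3 of WT 50 µM. In KO it was 94.0 to 113 in control and 164, 47.2 and 93.4 at 50 µM. At 10 µM it was 70.6 to 89.6 in WT and 64.8 to 85.0 in KO. Of the CD8 T cell markers, 5 of 6 were in the table and summed to 2931 to 3802 CPM, against 0.391 to 2.71 for 3 B cell markers, 9.59 to 20.4 for 3 CD4 T cell markers and 0 to 2.34 for 2 markers of NK and gamma delta T cells. In bulk samples, fewer cells of a type and less RNA per cell cannot be told apart.

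**Figure D1:**
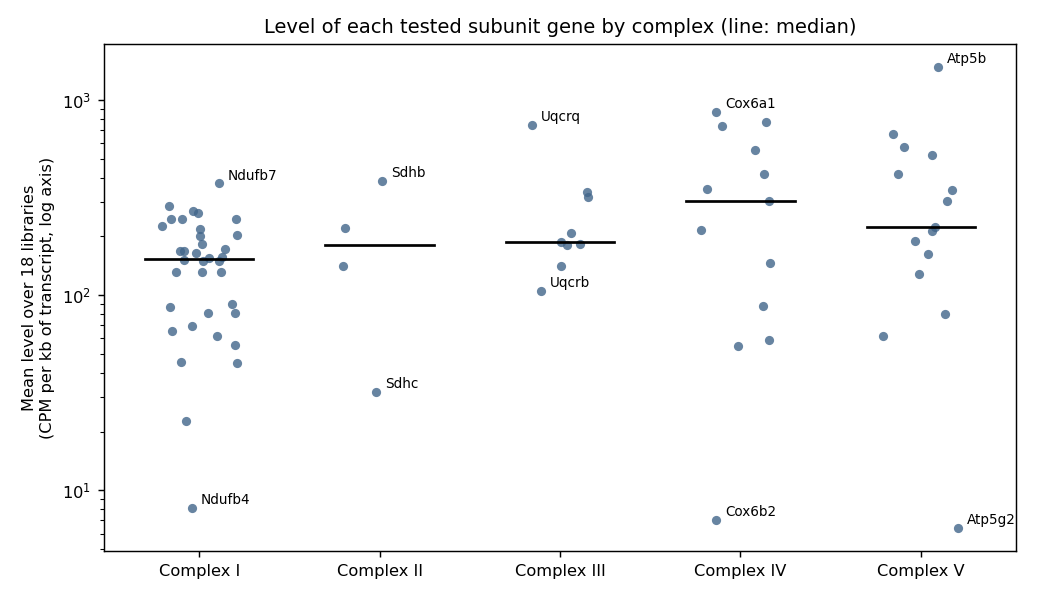
Mean level of each tested subunit gene over 18 libraries, in CPM per kb of transcript on a log axis, with a line at the median of each complex. The medians lie between 153 in complex I and 303 in complex IV, while single genes run from 6.42 (Atp5g2) to 1477 (Atp5b).

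Subunit genes of the same complex differed far more in level than the complexes did. Per kb of transcript, the median level over all libraries was 153 CPM per kb for complex I, 181 for complex II, 188 for complex III, 303 for complex IV and 224 for complex V. Within complex I, which takes electrons from NADH, the membrane-arm gene Ndufb7 had the highest level (374 CPM per kb) and Ndufb4 the lowest (8.12). In complex II, the iron-sulfur subunit gene Sdhb stood at 386 CPM per kb and the membrane anchor gene Sdhc at 31.9. Uqcrq, a small accessory subunit of complex III, reached 747 CPM per kb and Uqcrb 105. Cox6a1, the widely expressed form of subunit VIa of complex IV, reached 873 CPM per kb. Atp5b, the catalytic beta subunit of complex V, had the highest level of all members (1477 CPM per kb), and the c-ring gene Atp5g2 the lowest among those tested (6.42). The c ring of the ATP synthase is encoded by 3 genes for the same mature protein. Per kb of transcript, Atp5g3 stood at 668 CPM and Atp5g1 at 80.5, so Atp5g3 had the highest counted level of the 3. Near-identical copies elsewhere in the genome were found for Atp5g1 and Atp5g2 and not for Atp5g3, which limits this order.

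These levels carry a limit of the counting. Of the members, 22 have a near-identical copy elsewhere in the genome (at least 95% identity over at least 200 bases). Among them are Ndufb4, Atp5g1, Atp5g2, Uqcrb, Cox7c and Atp5l, and reads shared with a copy may have been dropped or split. In addition or among the same genes, 30 members overlap a gene on the opposite strand, and the sources used here do not say whether the counting used strand, so reads of such pairs cannot be told apart.

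Isoforms known from muscle, testis or other restricted tissues had few or no reads. Over all 18 libraries, Cox7a1, the heart and skeletal muscle form of subunit VIIa, had 87 counts, Cox4i2, an oxygen-regulated form of subunit IV found in lung, had 19, and the testis forms Cox7b2 and Cox8c had 13 and 12. Ndufa4l2, a hypoxia-induced relative of Ndufa4, had 6 counts, and Cox8b, a muscle form of subunit VIII, had 1. Cox6a2, the muscle form of subunit VIa, had 139 counts, of which 72 were in KO 50 µM replicate 1 and at most 10 in any other library. These 7 genes were not tested. The testis form Cox6b2 had enough counts to be tested (350 in all), at 1.77 to 6.44 CPM.

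In WT cells, 6 subunit genes were called lower at 50 µM LCA than in control, and none higher. They came from complexes I to IV: Ndufv3 and Ndufa1 (complex I), Sdhd (complex II), Uqcrh (complex III), and Cox7a2 and Cox6b1 (complex IV). All were modest changes, between 0.34 and 0.56 lower on the log2 scale, which is 0.677 to 0.791 of the control level. The 6 are 7.59% of the tested members. Of all tested genes, 8.58% were called in this comparison, 3.66% upward, where no member was, and 4.93% downward. Complex V had no called gene. In KO cells, 1 member, Sdhd, was called lower at 50 µM LCA, and none higher. That is 1.27% of members, where 6.35% of all tested genes were called, 2.93% upward and 3.42% downward. DESeq2 called 6 members in WT (7.59%, against 9.17% of all genes) and 3 in KO (3.8% against 7.77%). Libraries at 50 µM did not overlap their controls for 14 members in WT (17.7%, against 26.8% of all tested genes) and 16 in KO (20.3% against 23.4%).

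Sdhd encodes a small membrane anchor of succinate dehydrogenase (complex II), which helps bind ubiquinone. It lies on chromosome 9 (50596357 to 50603812, minus strand, GRCm38). Its CPM in replicates 1, 2 and 3 were 303, 299 and 328 in WT control, 256, 267 and 299 at 10 µM and 249, 227 and 221 at 50 µM. In KO they were 296, 306 and 299 in control, 306, 273 and 248 at 10 µM and 183, 262 and 268 at 50 µM. All 6 libraries at 50 µM were below all 6 control libraries, and those at 10 µM lay across both ranges. The change at 50 µM was -0.41 ± 0.10 in WT (edgeR adjusted p = 0.00756) and -0.34 ± 0.10 in KO (adjusted p = 0.039), and -0.38 ± 0.07 over both guides (adjusted p = 0.000299). KO 50 µM replicate 1 was the lowest library and had the highest receptor background of its group, and without it and WT 50 µM replicate 3 the KO change was -0.18 (adjusted p = 0.272), while that over both guides was -0.28 (adjusted p = 0.000639). The KO call was also lost with the replicate number as a block, with a fit of the KO control and 50 µM groups alone, and without any 1 of the KO controls.

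Uqcrh, the hinge protein that joins cytochrome c to cytochrome c1 in complex III, followed the same order. It lies on chromosome 4 (116066965 to 116075071, minus strand), where it overlaps the opposite-strand gene Gm12854. In WT its CPM were 125, 112 and 117 in control, 96.7, 107 and 125 at 10 µM and 97.4, 69.9 and 72.5 at 50 µM. In KO they were 121, 109 and 110 in control, 101, 87.2 and 91.2 at 10 µM and 61.7, 100 and 97.6 at 50 µM. Again no library at 50 µM reached a control library. The change was -0.56 ± 0.14 in WT (edgeR adjusted p = 0.00872), -0.38 ± 0.14 in KO (adjusted p = 0.0983, not called) and -0.47 ± 0.10 over both guides (adjusted p = 0.000876). With receptor background in the model the change over both guides was -0.32 (adjusted p = 0.0139). Without WT 50 µM replicate 2 or replicate 3 the WT call alone was lost for Uqcrh, and without replicate 3 that for Sdhd.

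Non-overlap of the 6 control and 6 libraries at 50 µM was found for these 2 members (2.53% of those tested) and for 6.21% of all tested genes. The response did not differ between guides by a passing test in either gene: the difference, KO minus WT, was 0.08 (95% interval -0.23 to 0.39) for Sdhd and 0.18 (-0.24 to 0.60) for Uqcrh. Sdhd and the import chaperone gene Timm8b start 98 bases apart on opposite strands, and Timm8b did not pass the test at 50 µM (-0.06 ± 0.08, adjusted p = 0.658). Nor did Lrrc41, which starts 198 bases from Uqcrh in the other direction (0.11 ± 0.07, adjusted p = 0.299).

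The stretch of promoter free of annotated exons is shown for the 2 genes whose fall held in every setting tried over both guides, from RefSeq on GRCm38.p6, 5′ to 3′ on the gene's strand. Capitals mark the letters CCGGAAG, a core bound by ETS factors such as GABP, a known regulator of respiratory chain genes, read on either strand (CTTCCGG is its reverse complement).
Sdhd, chr9:50603850-50603909, minus strand: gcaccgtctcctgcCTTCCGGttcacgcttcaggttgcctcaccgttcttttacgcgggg
Uqcrh, chr4:116075072-116075268, minus strand: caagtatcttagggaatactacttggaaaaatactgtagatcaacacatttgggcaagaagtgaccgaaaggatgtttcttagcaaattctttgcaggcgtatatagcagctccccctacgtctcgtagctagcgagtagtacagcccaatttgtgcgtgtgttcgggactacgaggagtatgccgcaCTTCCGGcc

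Promoter windows of 300 bases were found for 70 of the members. On either strand, CCGGAAG stood in 21.4% of them against 9.12% of the 27025 windows in the table, the NRF1 motif (GCGCA, any base, then GCGC) in 22.9% against 4.78%, and CCAAT in 44.3% against 37.9%. In the stretches free of exons, CCGGAAG was also found for Atp5l, Ndufb6, Atp5e and Uqcr11, which were called in no comparison. It was absent from those of the called Cox6b1, Cox7a2 and Ndufv3. These are descriptions of letters, not of binding.

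**Figure D2:**
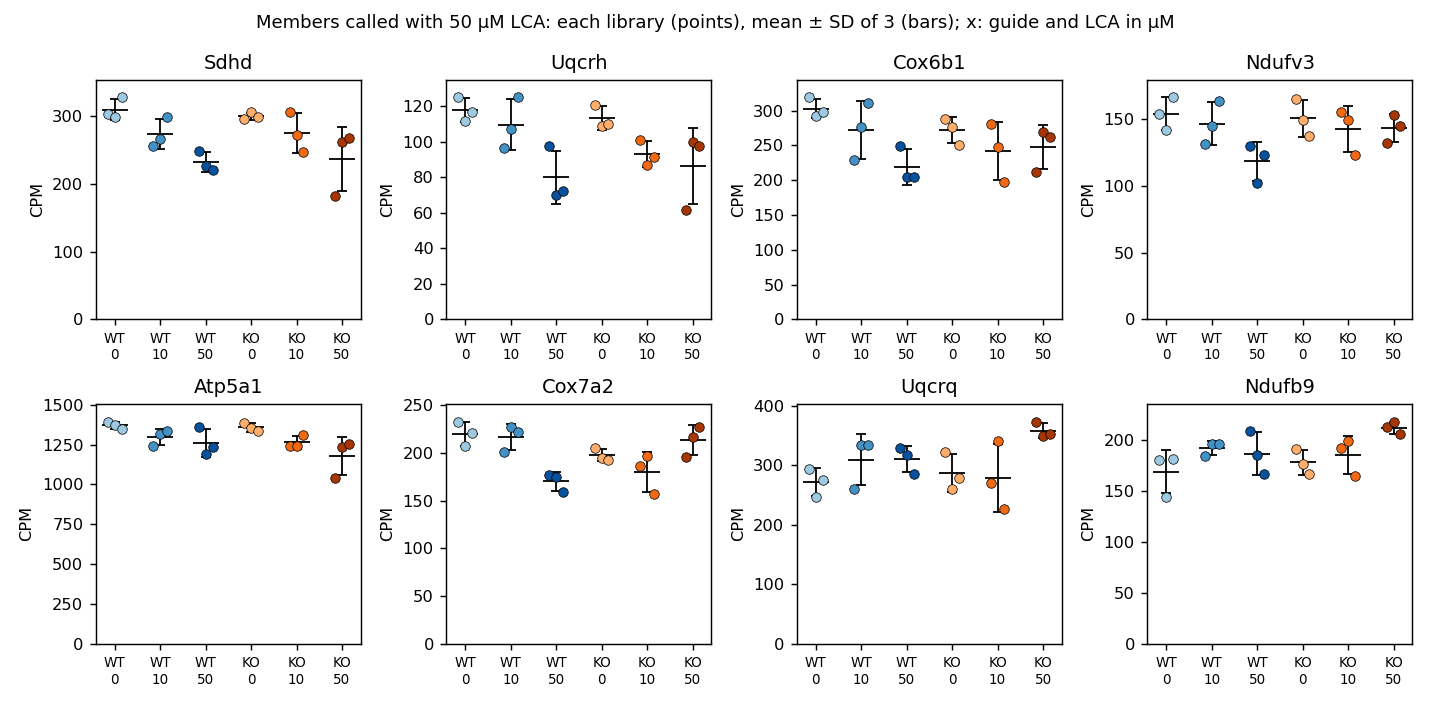
CPM of the 7 subunit genes called at 50 µM LCA over both guides and of Cox7a2, by guide and LCA dose, with each of 3 libraries as a point and the mean ± SD as bars. For Sdhd and Uqcrh every library at 50 µM lies below every control library, while Cox7a2 is low in WT at 50 µM and not in KO.

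The complex IV genes called in WT had no passing change in KO, like Uqcrh. Cox7a2, the widely expressed form of subunit VIIa (chromosome 9, 79755361 to 79759878), had CPM of 232, 207 and 221 in WT control, 201, 227 and 222 at 10 µM and 177, 175 and 159 at 50 µM. In KO it had 205, 195 and 193 in control, 186, 197 and 157 at 10 µM and 196, 217 and 227 at 50 µM. The 3 WT libraries at 50 µM were below all WT control libraries, while the KO libraries at 50 µM overlapped their controls. The change was -0.37 ± 0.08 in WT (edgeR adjusted p = 0.00383) and 0.11 ± 0.08 in KO (adjusted p = 0.523). At 50 µM, Cox7a2 was the only member called between guides, higher in KO than in WT by 0.33 ± 0.08 (adjusted p = 0.0324), 1.27% of members against 1.94% of all tested genes (1.42% upward). Without LCA, KO minus WT was -0.15 ± 0.08 for Cox7a2, with all 3 KO controls below all WT controls but not called (adjusted p = 0.657). Such separation of the control libraries was seen for 8.86% of members and 15.9% of all tested genes.

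The difference between the guides in the response of Cox7a2 to 50 µM was 0.48 (95% interval 0.22 to 0.74), the smallest p among members, and it was not called (adjusted p = 0.583). No gene of the 11651 was called in that comparison (percent called 0) or in the matching one at 10 µM (0), by edgeR. At an unadjusted p below 0.05, 8 members (10.1%) and 6.26% of all genes passed at 50 µM, and 4 members (5.06%) and 3.28% of all genes at 10 µM. DESeq2 called no member in either, and 0.00858% and 0% of all genes. The call of Cox7a2 between guides at 50 µM was lost without WT 50 µM replicate 2 or 3, without KO 50 µM replicate 2 or 3, in a fit of the compared groups alone, without WT replicate 3 and KO replicate 1 together (0.34, adjusted p = 0.0578), and with receptor background in the model (0.24, adjusted p = 0.195). The WT fall held with each library left out in turn.

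Cox6b1, the subunit VIb that joins the monomers of the complex IV dimer, showed 319, 292 and 298 CPM in WT control and 249, 204 and 205 at 50 µM (-0.47 ± 0.12, edgeR adjusted p = 0.0188). KO libraries had 288, 277 and 251 CPM in control and 212, 270 and 262 at 50 µM (-0.13 ± 0.12, adjusted p = 0.612). The WT groups did not overlap and the KO groups did. Its difference between guides was 0.33 (95% interval -0.04 to 0.71). The WT call of Cox6b1 was lost without WT control replicate 1, WT 50 µM replicate 2 or WT 50 µM replicate 3.

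In complex I, the called genes were accessory subunits, none of them a core subunit that carries flavin or iron-sulfur clusters. Most of the 36 complex I genes are accessory, so this says little about core subunits. Ndufv3, a small subunit at the NADH-binding tip, had 154, 142 and 166 CPM in WT control and 130, 102 and 123 at 50 µM (-0.38 ± 0.10, edgeR adjusted p = 0.0162). In KO it had 165, 149 and 137 CPM in control and 132, 153 and 145 at 50 µM (-0.07 ± 0.10, adjusted p = 0.784), with overlapping groups. Ndufa1, a membrane-arm subunit needed for assembly, had 106, 92.3 and 99.5 CPM in WT control and 80.9, 83.6 and 71.1 at 50 µM (-0.34 ± 0.11, adjusted p = 0.0381), again without overlap. Its KO values were 106, 91.7 and 84.2 CPM in control and 83.7, 95.7 and 102 at 50 µM (0.00 ± 0.10). The call of Ndufa1 was lost in 5 of the 6 fits that left out 1 library, and that of Ndufv3 without WT control replicate 3 or WT 50 µM replicate 2. The core genes Ndufs1 and Ndufv1, chosen after their values were seen, carry iron-sulfur clusters and flavin and had WT changes of -0.01 ± 0.08 and 0.04 ± 0.08. Other core genes for iron-sulfur subunits, also not called, varied. From WT control to 50 µM, Ndufv2 had 144, 134 and 143 CPM, then 136, 128 and 118. Ndufs8 had 164, 139 and 153, then 141, 149 and 128. Ndufs7 had 217, 177 and 213, then 236, 226 and 192.

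Receptor background was higher in all 3 WT libraries at 50 µM than in any WT control. With it as a covariate, none of the 6 WT calls remained: the 6 changes lay between -0.18 (Ndufa1) and -0.28 (Ndufv3, Cox6b1), with adjusted p from 0.209 to 0.548, and 272 of all tested genes were called in place of 1000. Within WT the mean background was 79.28 CPM in control, 80.45 at 10 µM and 160.8 at 50 µM. Since it was raised only at the dose compared here, the shares of background and LCA in these 6 changes cannot be told apart. Leaving out only WT 50 µM replicate 3 and KO 50 µM replicate 1, the library of each guide with the highest background at that dose, left 5 of the 6 called and lost Ndufa1. Summed CD8 T cell markers were lower at 50 µM in both guides, without overlap. They stood at 3737 to 3802 CPM in WT control and 3169 to 3592 at 50 µM, and at 3642 to 3700 and 2931 to 3601 in KO. Summed B cell markers were 0.599 to 1.03 CPM in WT control and 1.07 to 2.71 at 50 µM, without overlap, and 0.943 to 1.35 and 0.785 to 1.91 in KO. Summed CD4 T cell markers were 9.59 to 15.3 CPM in WT control and 15.1 to 20.4 at 50 µM, and 10.6 to 14.2 and 12.1 to 16.2 in KO. Their part in the changes of the subunit genes was not tested.

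**Figure D3:**
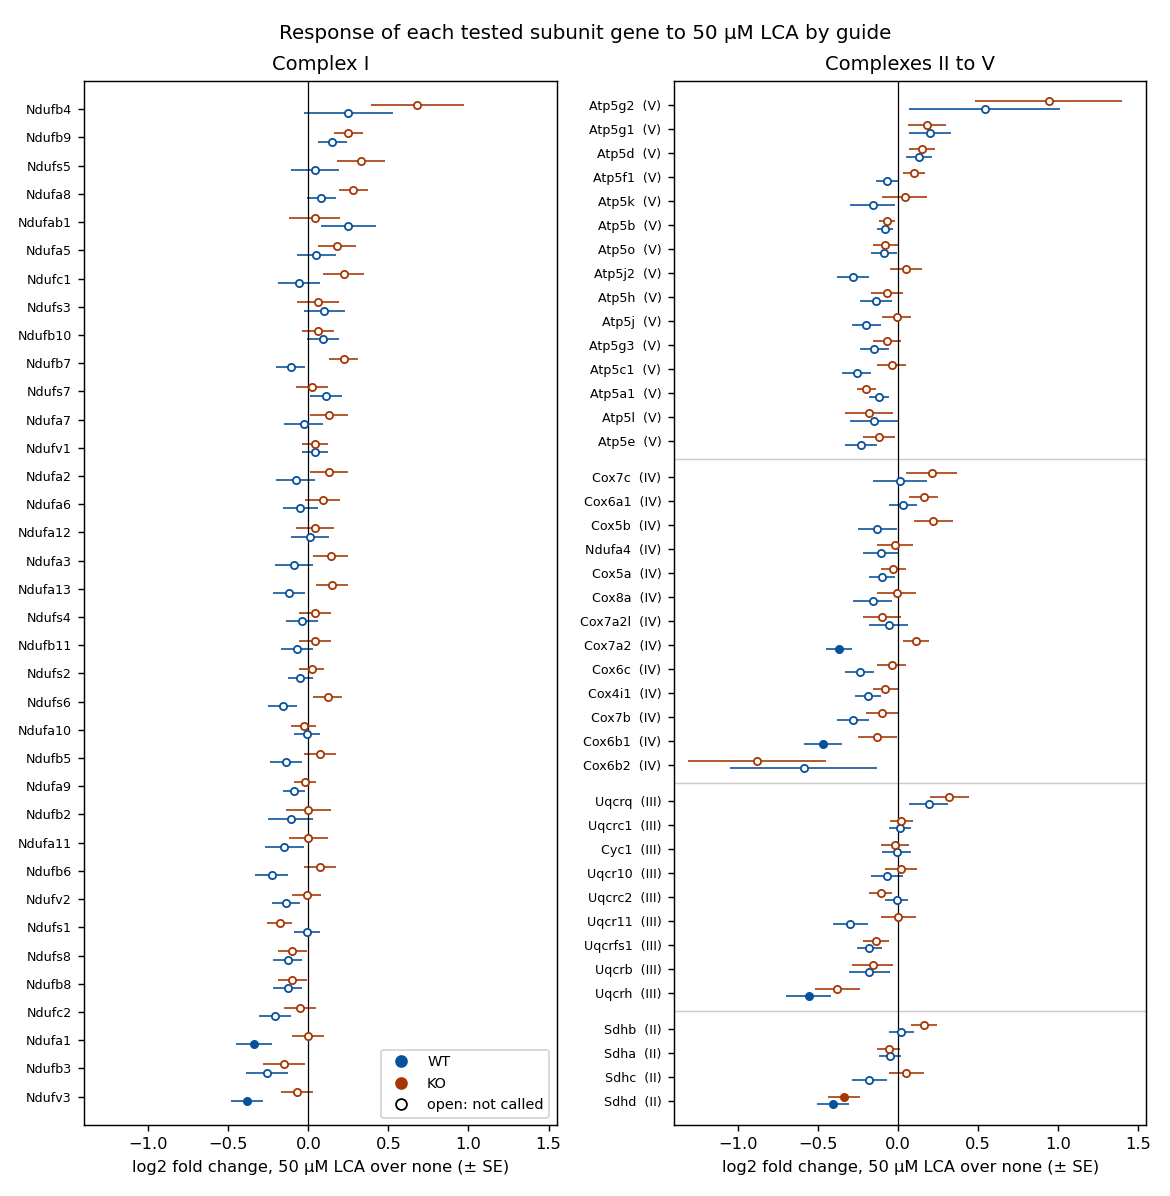
Log2 fold change at 50 µM LCA over control (± SE) for each tested subunit gene, in WT and KO cells, ordered within each complex, with filled points for called genes. Most WT points lie left of their KO points and left of 0. Over all tested members, including Atp5s and Atp5sl, which are not drawn, 63 of the 79 differences between guides are positive (79.7%, against 51.1% of all tested genes). Their median of 0.12 is -0.03 with receptor background in the model, and called genes are few: 6 in WT and 1 in KO.

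Taking both guides together, 7 members were called at 50 µM LCA, 2 up and 5 down. This is 8.86% of those tested, against 16.5% of all tested genes (7.86% upward, 8.66% downward). Besides Sdhd and Uqcrh, those that fell were Cox6b1 (-0.30 ± 0.09, edgeR adjusted p = 0.0197), Ndufv3 (-0.22 ± 0.07, adjusted p = 0.0302) and Atp5a1 (-0.16 ± 0.05, adjusted p = 0.0119). The 2 that rose were Ndufb9 (0.20 ± 0.06, adjusted p = 0.0325) and Uqcrq (0.26 ± 0.09, adjusted p = 0.0433). Cox6b1, Ndufv3, Atp5a1 and Uqcrq were not called without the library of each guide with the highest background at that dose, nor with background as a covariate. Leaving out WT 50 µM replicate 2 lost Cox6b1 and Ndufv3, replicate 3 lost Cox6b1, and WT control replicate 3, KO control replicate 1 or KO 50 µM replicate 1 lost Ndufv3.

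Atp5a1 encodes the alpha subunit of the ATP synthase head and was the only complex V gene called in any comparison. Its CPM were 1390, 1375 and 1346 in WT control and 1359, 1188 and 1236 at 50 µM, and 1386, 1353 and 1333 in KO control and 1043, 1237 and 1255 at 50 µM. The KO groups did not overlap and the WT groups did, because WT 50 µM replicate 1 lay among the controls. It overlaps the opposite-strand gene Haus1, which had 67.4 CPM on average and did not pass the test (0.08 ± 0.08). Its partner Atp5b, with which it forms the catalytic hexamer, had -0.07 ± 0.04 (adjusted p = 0.159).

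Ndufb9, a membrane-arm subunit of complex I, had 180, 144 and 181 CPM in WT control and 208, 185 and 166 at 50 µM. In KO it had 191, 176 and 166 CPM in control and 212, 217 and 205 at 50 µM, where the groups did not overlap. Uqcrq, which supports assembly around cytochrome b in complex III, had 293, 246 and 276 CPM in WT control and 329, 317 and 286 at 50 µM. Its KO libraries had 323, 260 and 279 CPM in control and 373, 349 and 353 at 50 µM, again without overlap in KO and with overlap in WT. Neither gene was called within a guide. The call of Ndufb9 was lost in 6 of the 12 fits that left out 1 library (WT control replicate 2, KO control replicates 2 and 3, WT 50 µM replicates 1 and 2, KO 50 µM replicate 2). That of Uqcrq was lost in 9 of 12, and remained only without WT control replicate 1, KO control replicate 1 or WT 50 µM replicate 3. It was also lost with the replicate block.

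In complex II, over both guides, Sdhd was the only gene of the 4 that was called: the flavoprotein gene Sdha had -0.05 ± 0.05, the iron-sulfur gene Sdhb 0.09 ± 0.06 and the other anchor gene Sdhc -0.07 ± 0.08, none of them called. In complex V, the c-ring genes Atp5g1, Atp5g2 and Atp5g3 had 0.19 ± 0.09, 0.74 ± 0.33 and -0.11 ± 0.06, none called, and Atp5g2 rested on 5 to 25 counts per library. In complex IV, the low testis form Cox6b2 had -0.73 ± 0.31 (edgeR adjusted p = 0.109). The prefix-only genes Atp5s and Atp5sl had 0.36 ± 0.25 and -0.10 ± 0.12.

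At 10 µM LCA no member was called in WT, in KO or over both guides, where 0.386%, 0.326% and 1.82% of all tested genes were. At an unadjusted p below 0.05, 1, 2 and 3 members passed (1.27%, 2.53% and 3.8%), against 7.8%, 7.81% and 11.8% of all genes. DESeq2 called no member, and 0.716%, 0.569% and 2.26% of all genes. Between 50 and 10 µM over both guides no member was called, against 5.72% of all tested genes, with 8 members (10.1%) and 17.8% of all genes at an unadjusted p below 0.05. DESeq2 called no member there, and 6.44% of all genes. Ndufb9 at 10 µM had 184, 196 and 196 CPM in WT, above all WT controls (0.19 ± 0.09, edgeR adjusted p = 0.632), a separation seen for 6.33% of members and 13.9% of all tested genes.

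**Figure D4:**
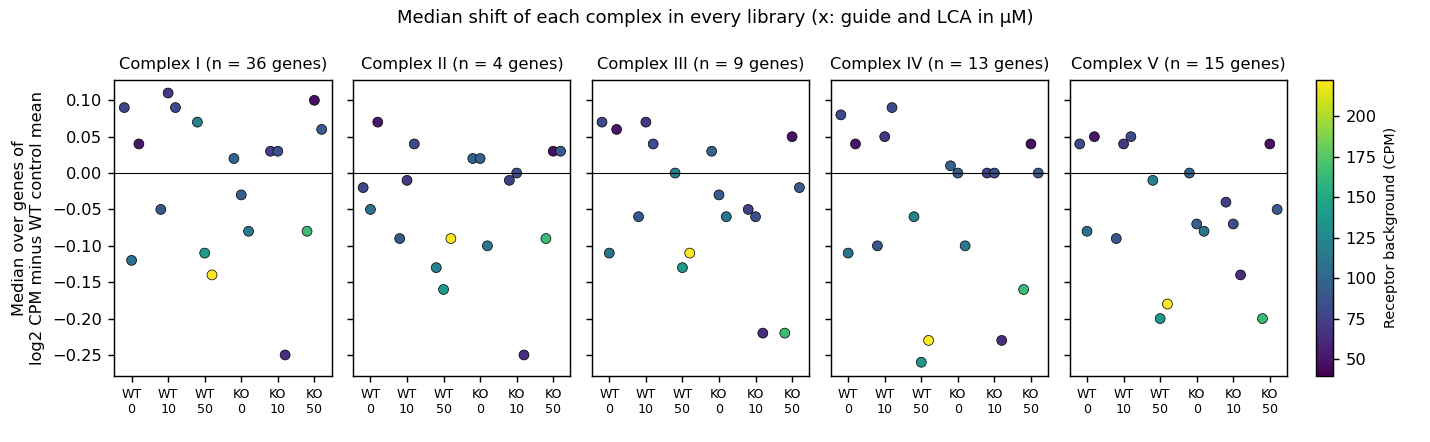
Median over the tested genes of each complex of log2 CPM minus the WT control mean, 1 point per library, by guide and LCA dose, coloured by receptor background in CPM. Libraries of a group lie up to 0.28 apart, and the lowest points are KO 10 µM replicate 3 and, in complexes III to V, libraries at 50 µM with background of 139 CPM or more.

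For whole complexes the levels were summed over genes and set out by group, with no test. Summed CPM of complex I were 4638 ± 286 (SD, n = 3) in WT control, 4816 ± 262 at 10 µM and 4419 ± 337 at 50 µM, and 4578 ± 163, 4493 ± 454 and 4738 ± 266 in KO. For complex II, WT sums were 1260 ± 46, 1244 ± 69 and 1163 ± 55, with KO sums of 1255 ± 39, 1202 ± 75 and 1228 ± 98. The 50 µM libraries overlapped their controls in both complexes and both guides. As the median over its 4 genes, complex II lay between -0.16 and -0.09 in WT at 50 µM, below all WT controls (-0.05 to 0.07).

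Complex III summed to 2092 ± 131, 2115 ± 109 and 2028 ± 111 CPM in WT control, 10 µM and 50 µM, and to 2098 ± 76, 2010 ± 118 and 2096 ± 139 in KO. Complex IV had WT sums of 3032 ± 217, 3059 ± 185 and 2686 ± 226, with KO sums of 2970 ± 89, 2830 ± 268 and 2964 ± 320. Complex V had WT sums of 7103 ± 144, 6927 ± 251 and 6645 ± 402, with KO sums of 7028 ± 105, 6722 ± 141 and 6733 ± 441. In these 3 complexes, too, libraries at 50 µM overlapped the controls of their guide. At 10 µM the summed KO libraries of complex V (6560 to 6816) lay below the KO controls (6947 to 7147). Much of that sum is Atp5b and Atp5a1, with 2830 and 1288 CPM on average. As the median over its 15 genes, KO at 10 µM (-0.14 to -0.04) overlapped KO control (-0.08 to 0.00). Complex IV had the lowest mean of any group in WT at 50 µM, where 2 libraries stood at 2553 and 2559 and replicate 1 at 2947.

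Medians over genes are given by guide as a description. In WT, the median change at 50 µM was -0.10 over the 79 tested members, with 59 of them negative, against 0.01 over all tested genes, and with receptor background in the model it was 0.02. By complex it was -0.06 for I, -0.12 for II, -0.07 for III, -0.16 for IV and -0.14 for V. In KO the median was 0.02, with 45 positive, and by complex 0.04, -0.01, -0.02, -0.03 and -0.04. The difference of the responses, KO minus WT, had a median of 0.12 over members, with 63 of 79 positive (79.7%), and of 0.01 over all genes, of which 51.1% were positive. With receptor background in the model the members' median was -0.03. The cytosolic ribosome genes, listed for reference, had a median difference of 0.16, with 68 of 79 positive.

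KO 10 µM replicate 3 was low in every complex, with medians between -0.25 and -0.14, and its receptor background was 64.8 CPM, the lowest of its group. By transcript length, in WT at 50 µM the median was -0.14 in the 40 shorter and -0.07 in the 39 longer genes, divided at 758 bases, and in KO 0.01 and 0.02.

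Between guides, Ndufa4 was the one subunit gene that differed over all doses, lower in KO than in WT by 0.43 ± 0.06 on the log2 scale (edgeR adjusted p = 1.02e-05), 0.745 of the WT level. This is 1.27% of members against 5.15% of all tested genes (3.36% upward, 1.79% downward). Ndufa4 was first assigned to complex I and is now known as a subunit of complex IV. It lies on chromosome 6 (11900292 to 11907497, minus strand, GRCm38). Its CPM in WT were 124, 109 and 106 in control, 113, 123 and 120 at 10 µM and 104, 114 and 96.0 at 50 µM. In KO they were 79.2, 91.5 and 87.2 in control, 78.7, 92.2 and 67.2 at 10 µM and 76.5, 85.2 and 92.9 at 50 µM. All 9 KO libraries were below all 9 WT libraries, which held for 61 of the 11651 tested genes (0.524%). By p-value Ndufa4 ranked 62 of the 600 genes called.

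At each dose the direction of Ndufa4 was the same, and the groups did not overlap, as for 15.9% of all tested genes in control, 14.1% at 10 µM and 15.9% at 50 µM. KO minus WT was -0.39 ± 0.11 in control (edgeR adjusted p = 0.0878, not called), -0.58 ± 0.11 at 10 µM (adjusted p = 0.00209) and -0.30 ± 0.11 at 50 µM (adjusted p = 0.169, not called). At 10 µM it was the only member called, 1.27% against 0.661% of all tested genes (0.412% upward, 0.249% downward). Without LCA no member was called between guides, against 0.627% of all genes, with 3 members (3.8%) and 8.69% of all genes at an unadjusted p below 0.05. DESeq2 called 1 member there (1.27%) and 0.841% of all genes. LCA did not change Ndufa4 by a passing test at 50 µM in WT (-0.11 ± 0.11, 95% interval -0.34 to 0.12) or in KO (-0.02 ± 0.11, interval -0.25 to 0.22). The call over all doses was kept in each of the 25 other settings, between -0.47 and -0.39.

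The promoter of Ndufa4 is shown because it is the member that separated the guides. The window, with exons left out, comes from RefSeq on GRCm38.p6 and holds none of the 3 motifs (CCGGAAG, the NRF1 motif, CCAAT) on either strand, so it has no capitals.
Ndufa4, chr6:11907498-11907700, minus strand: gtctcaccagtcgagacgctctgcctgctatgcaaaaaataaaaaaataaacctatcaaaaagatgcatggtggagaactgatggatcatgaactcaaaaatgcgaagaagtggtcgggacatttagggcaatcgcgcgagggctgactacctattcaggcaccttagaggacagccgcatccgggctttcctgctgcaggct

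Phf14, which starts 312 bases from Ndufa4 in the other direction, did not pass the test between guides (-0.01 ± 0.10, edgeR adjusted p = 0.987). The other 12 tested genes of complex IV lay between -0.05 ± 0.07 (Cox6b1) and 0.40 ± 0.26 (Cox6b2) between guides, with none called. Median differences between guides were -0.01, 0.00, -0.02, 0.02 and -0.03 for complexes I to V, and -0.00 over all tested genes.

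**Figure D5:**
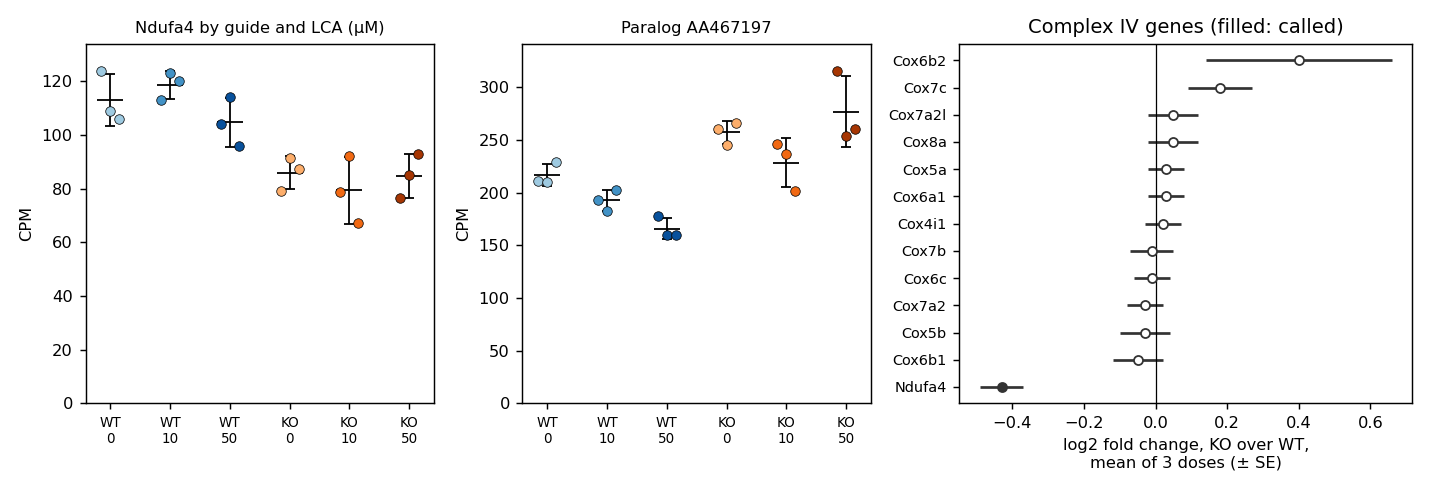
CPM of Ndufa4 and of its paralog AA467197 by guide and LCA dose (3 libraries as points, mean ± SD as bars), and the log2 fold change of KO over WT, mean of 3 doses (± SE), of each tested complex IV gene. Ndufa4 lies below 93 CPM in KO and above 95 in WT, AA467197 is higher in KO, and Ndufa4 is the only filled point of complex IV.

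AA467197, looked up after the values of Ndufa4 were seen, is not a member of the symbol rule but a paralog whose protein is known to take the place of NDUFA4 in complex IV. It lies on chromosome 2 (122636986 to 122641191, plus strand, GRCm38), and the annotation places the microRNA gene Mir147 (122640803 to 122640881) inside it on the same strand. Its CPM in WT were 211, 210 and 229 in control, 193, 183 and 203 at 10 µM and 178, 160 and 160 at 50 µM. In KO they were 261, 245 and 266 in control, 246, 237 and 202 at 10 µM and 316, 254 and 261 at 50 µM. The guides did not overlap in control or at 50 µM, and at 10 µM KO replicate 3 fell within the WT range. Over all doses AA467197 was higher in KO by 0.41 ± 0.05 (edgeR adjusted p = 3.64e-07), the opposite direction to Ndufa4, and was called in all 25 other settings (0.37 to 0.44).

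By dose, AA467197 was higher in KO by 0.25 ± 0.08 in control (edgeR adjusted p = 0.235), 0.24 ± 0.08 at 10 µM (adjusted p = 0.29) and 0.73 ± 0.09 at 50 µM (adjusted p = 9.11e-07). In WT it fell at 50 µM (-0.38 ± 0.09, adjusted p = 0.00356), and in KO it had 0.11 ± 0.08 (adjusted p = 0.542). The difference between those responses was 0.49 ± 0.12 and was not called (adjusted p = 0.583).

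Myeloid markers differed between the guides as well. All 5 myeloid markers were in the table, none at 0 over the series, and they summed to 32.1 to 51.2 CPM in WT libraries and 8.64 to 24.8 in KO libraries. Of them, 3 were called lower in KO over all doses, where 1.79% of all tested genes were: Lyz2 (-1.76 ± 0.14), Csf1r (-2.03 ± 0.43) and Elane (-2.70 ± 0.77). Values of the other myeloid markers are not given here. Markers of red cells and platelets summed to 3.52 to 42.1 CPM in WT and 0.566 to 14.98 in KO. These ranges overlap, and at 10 µM the means were 6.75 in WT and 6.72 in KO. The part of these cells in the guide difference of Ndufa4 and AA467197 was not tested.

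Genes that serve the respiratory chain, listed with earlier results of these data known, changed in both directions at 50 µM LCA over both guides. Of 18 tested genes listed for the TCA cycle, which supplies NADH and succinate, 3 rose and 2 fell. The list includes Pcx, pyruvate carboxylase, which feeds the cycle and is not one of its enzymes. Pcx rose by 0.57 ± 0.12 (edgeR adjusted p = 0.000791). Dlst, a subunit of the 2-oxoglutarate dehydrogenase complex, rose by 0.19 ± 0.07. Cs, citrate synthase, fell by 0.17 ± 0.05 and Idh3a, an isocitrate dehydrogenase subunit, by 0.19 ± 0.06. The share called was 27.8%, against 16.5% of all tested genes.

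Among regulators of mitochondrial biogenesis, 1 of 13 rose and 2 fell. This list and that of ubiquinone synthesis and cytochrome c are read against 16.5% of all tested genes called (7.86% upward, 8.66% downward). Pprc1, a coactivator related to PGC-1 alpha, rose by 0.42 ± 0.07 (edgeR adjusted p = 2.56e-05). Tfam, which packages and transcribes mitochondrial DNA, fell by 0.34 ± 0.07 (adjusted p = 0.000762), and Gabpa, an ETS factor subunit that binds the CCGGAAG core, by 0.22 ± 0.08 (adjusted p = 0.0455). Within a guide Gabpa was not called, with -0.11 ± 0.11 in WT (edgeR adjusted p = 0.594) and -0.32 ± 0.11 in KO (adjusted p = 0.065). Its part in the changes of the subunit genes was not tested. Of 17 genes for ubiquinone synthesis and cytochrome c, Coq5 rose (0.26 ± 0.08). Cycs, the somatic cytochrome c that the hinge protein UQCRH helps to dock, fell by 0.56 ± 0.19 (edgeR adjusted p = 0.0337). It had 31 to 83 counts per library, 10.9 CPM on average. It was called in neither guide alone, with -0.51 ± 0.27 in WT (adjusted p = 0.257) and -0.62 ± 0.26 in KO (adjusted p = 0.173). Near-identical copies were looked for among members only, so not for Cycs.

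Each list that follows is read against the 16.5% of all tested genes called. Of 17 assembly factors for complex I, Tmem126b fell by 0.49 ± 0.14, and of 36 for complexes II to V, Ttc19, a complex III factor, rose by 0.48 ± 0.14. Among 6 adenine nucleotide and phosphate carriers, Slc25a5 fell by 0.17 ± 0.05, and of 17 import genes Timm50 rose by 0.19 ± 0.06. The mitochondrial ribosome had 2 of 78 genes up (Mrps28, Mrpl17) and 2 down (Mrpl34, Mrpl16), and the cytosolic ribosome 3 of 79 up (Rpl14, Rpl6, Rps19). Their medians were -0.00 and 0.04, beside -0.05 for the respiratory chain members and 0.01 for all tested genes.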

How the data were processed

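The deposited table holds raw counts per gene symbol for 18 libraries; the submitters' processing notes name STAR, HOMER, DESeq2 and the builds GRCm38 and mm10, without roles, versions or strand setting. Members, gene lists and settings were chosen with earlier results of these data known. After filterByExpr by group and TMM scaling, 1 edgeR 4.0.16 quasi-likelihood model (R 4.3.3) of 6 group means gave 13 contrasts, adjusted within each over 11651 genes. Standard errors were derived from the F statistic. Receptor background sums 1470 olfactory, vomeronasal and trace amine receptor genes under the filter. Levels per kb use the median length of principal transcripts (GENCODE, GRCm38). Within a group, libraries differed by more than counting noise (chi-square per gene 2.436 to 8.56). The code was tested on simulated data. Genes were named by a rule: up to 4 called members per complex at 50 µM and up to 2 between guides, other called members, alternative isoforms, otherwise the most abundant, and up to 3 called genes of each other list; further genes named were chosen after their values were seen. The values of 1 listed gene are not reported here. Settings tried were DESeq2 1.42.0, its size factors, no filter, a mean CPM of at least 5, the compared groups alone, a replicate block, background as a covariate, and libraries left out.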

Additional observations from a re-analysis of the deposited data

How the results depend on the processing

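Replicate numbers did not pair the libraries: deviations of same-numbered libraries correlated between -0.22 and 0.09 (45 pairs, none above 0.1), and 6 of 18 libraries correlated best with their own number. With the replicate block the members called at 50 µM in KO went from 1 to 0, and over both guides from 7 to 6. None of the called members' changes turned sign. With background as a covariate the members' median did: from -0.10 to 0.02 in WT at 50 µM, from -0.05 to 0.01 over both guides, from 0.10 to -0.01 between guides at 50 µM, and from 0.12 to -0.03 for the difference of responses. In WT at 50 µM the 6 calls became 0 with background as a covariate. In KO at 50 µM the 1 call became 2 with DESeq2 size factors, 3 with DESeq2, 5 with no filter, 3 with a mean CPM of at least 5 and 4 with the covariate. The compared groups alone gave 1 call there, Uqcrq, and leaving out the 2 libraries of highest background gave 1, Cox6b2, so the genes differed. Between guides in control the 0 calls became 1 with DESeq2, no filter or the compared groups alone. Between guides at 50 µM the 1 call became 2 with no filter, and 0 with the covariate, the compared groups alone or without the 2 libraries. Over both guides at 50 µM the 7 calls became 13 with no filter. They were 6 with the covariate (4 up) and 6 without the 2 libraries (3 up), each sharing Sdhd, Uqcrh and Ndufb9 with the main result. For 50 against 10 µM the 0 calls became 2 with no filter and 1 with the covariate, and over all doses between guides the 1 became 2 with no filter. The causes were not tested. Shares of all tested genes are not set here beside these counts or those that follow. From them, a change in the members and one in all genes cannot be told apart. Leaving out 1 library at a time gave 2 to 10 calls in WT at 50 µM (2 without replicate 2 or 3), 0 to 4 in KO at 50 µM (0 without KO control replicate 1 or 2), 0 to 2 between guides at 50 µM (0 without WT replicate 2 or 3), 5 to 10 at 50 µM over both guides (5 without WT 50 µM replicate 2), 0 to 2 for 50 against 10 µM, 1 to 2 between guides over all doses, 1 between guides at 10 µM, and 0 in the other comparisons. Depth limits the low genes most: Atp5g2 rests on 5 to 25 counts per library.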
